A study of Pyrus communis with 12 samples.

Results

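The skins of very young fruits of the European pear (Pyrus communis) cultivar ‘Clapp Favorite’ (‘CF’) were compared between 5 DAFB (days after full bloom, ‘CF2’) and 2 DAFB (‘CF1’), with 3 libraries at each stage. These are 6 of the 12 libraries of the series. The other 6 are the same stages of ‘Red Clapp Favorite’ (‘RCF’), a red-skinned sport of ‘CF’, called ‘RCF2’ at 5 DAFB and ‘RCF1’ at 2 DAFB, and they are used here only to set values beside those of ‘CF’. Each replicate was a pool of the skins of 100 fruits, taken from trees that were 6 years old and stood on Pyrus betulaefolia rootstocks, so a library holds the whole skin and no cell type was separated. The comparison asks which gene families and functions changed in the skin of the parent cultivar over the days in which its young fruits began to grow. Of the 42760 genes in the table, 25707 had an FPKM (mapped fragments normalised for gene length and library total) of at least 1 in at least 3 of the 12 libraries, and these were tested.

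After pollination the floral parts are shed and the tissue that becomes the flesh and skin of the pear starts to grow, at first mainly by cell division and later by expansion of the cells. The outer cell layer is green at this age, and it covers itself with a cuticle of cutin and waxes. The flavonoids of the skin, among them anthocyanins and procyanidins, are made from phenylalanine in a chain of steps that begins with phenylalanine ammonia-lyase (PAL) and 4-coumarate:CoA ligase (4CL), passes through chalcone synthase (CHS), chalcone isomerase (CHI) and flavanone 3-hydroxylase (F3H), and reaches the coloured compounds with anthocyanidin synthase (ANS) and glycosyltransferases.

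The libraries of ‘CF2’ lay close together, while those of ‘CF1’ did not. Between 95 and 112 tested genes in each ‘CF2’ library, but 890, 3398 and 4736 in ‘CF1’ replicates 1, 2 and 3, differed by more than 1 on the log2 scale from the mean of the other libraries of their group. In ‘CF1’ replicate 3, 296 tested genes were listed at 0, against 19 in replicate 1 and 12 in replicate 2, and its 20 highest genes took 10.1% of the summed FPKM, against 7.33% and 6.72%. ‘CF1’ replicate 1 was the middle one of the ‘CF1’ libraries for 65.4% of the tested genes. Counts were not used here, so the precision of low values is not known. As far as the steps between the lowest FPKM values show it, the depth relative to ‘CF2’ replicate 1 was 1.0 and 0.962 in the other ‘CF2’ libraries and 0.636, 0.844 and 0.693 in ‘CF1’. Results are therefore given with and without ‘CF1’ replicate 3. The part that RNA quality, the sampling of fruits or depth plays in the place of this library was not tested.

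In ‘CF2’ vs. ‘CF1’ a gene was called where P, before adjustment, was under 0.05 and the log2 fold change was 1 or more in size. With all 6 libraries 1858 genes were higher in ‘CF2’ (7.23% of those tested) and 2548 were lower (9.91%). With Benjamini-Hochberg adjustment in limma the numbers were 980 and 2262, but 1 to 2503 and 4 to 2926 with a single library left out. After each library was rescaled to the same sum (TPM) they were 2766 and 2478, so that the larger number was then of genes higher in ‘CF2’. Without ‘CF1’ replicate 3, 846 genes were higher (3.29%) and 2229 were lower (8.67%). Without ‘CF1’ replicate 2 instead, 3355 genes were higher and 2962 lower. With all libraries and also without ‘CF1’ replicate 3, 797 genes were called higher (3.10%) and 2075 lower (8.07%), or 1368 and 2028 with TPM. Below, a gene is said to have risen or fallen where it was called both with all libraries and without ‘CF1’ replicate 3, and where a call was made only with all libraries this is stated. These are the calls named “both ways”, and the shares of families called both ways are to be read beside 3.10% and 8.07%. A value in parentheses after the FPKM of a gene, or after its identifier, is the log2 fold change on log2(FPKM + 1) with its SE, over 3 libraries at each stage. The median log2 fold change over all tested genes was 0.16, and 0.09 without ‘CF1’ replicate 3.

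Genes that rose and genes that fell differed in how far they moved. Of the 2075 that fell, 941 (45.3%) did so by at least 2 on the log2 scale, 392 (18.9%) by at least 3 and 69 (3.33%) by at least 5. Of the 797 that rose, 209 (26.2%) did so by at least 2, 23 (2.89%) by at least 3 and 0 by at least 5. Without ‘CF1’ replicate 3 the genes past 2 were 35 of those that rose and 721 of those that fell. The medians were 1.66 for the genes that rose (1.22 without ‘CF1’ replicate 3) and -1.90 for those that fell (-1.64 without it).

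The genes were grouped by the protein domain named in the table, as 61 lists of families and functions, and 5453 (21.2%) of the tested genes stood in at least 1 of them. So did 275 (34.5%) of the genes that rose and 673 (32.4%) of those that fell, while 155 and 389 had no domain name. Summed levels of a list or family are over all its genes, tested or not. With all libraries 36 lists had more members called lower than higher and 23 had more called higher. The kinesins, cyclins, tubulins and replication genes of dividing cells had members called higher and 0 called lower, unlike WRKY factors, NAC factors, glycosyltransferases, water-stress proteins and Bet v I proteins, in which members called lower prevailed.

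**Figure D1:**
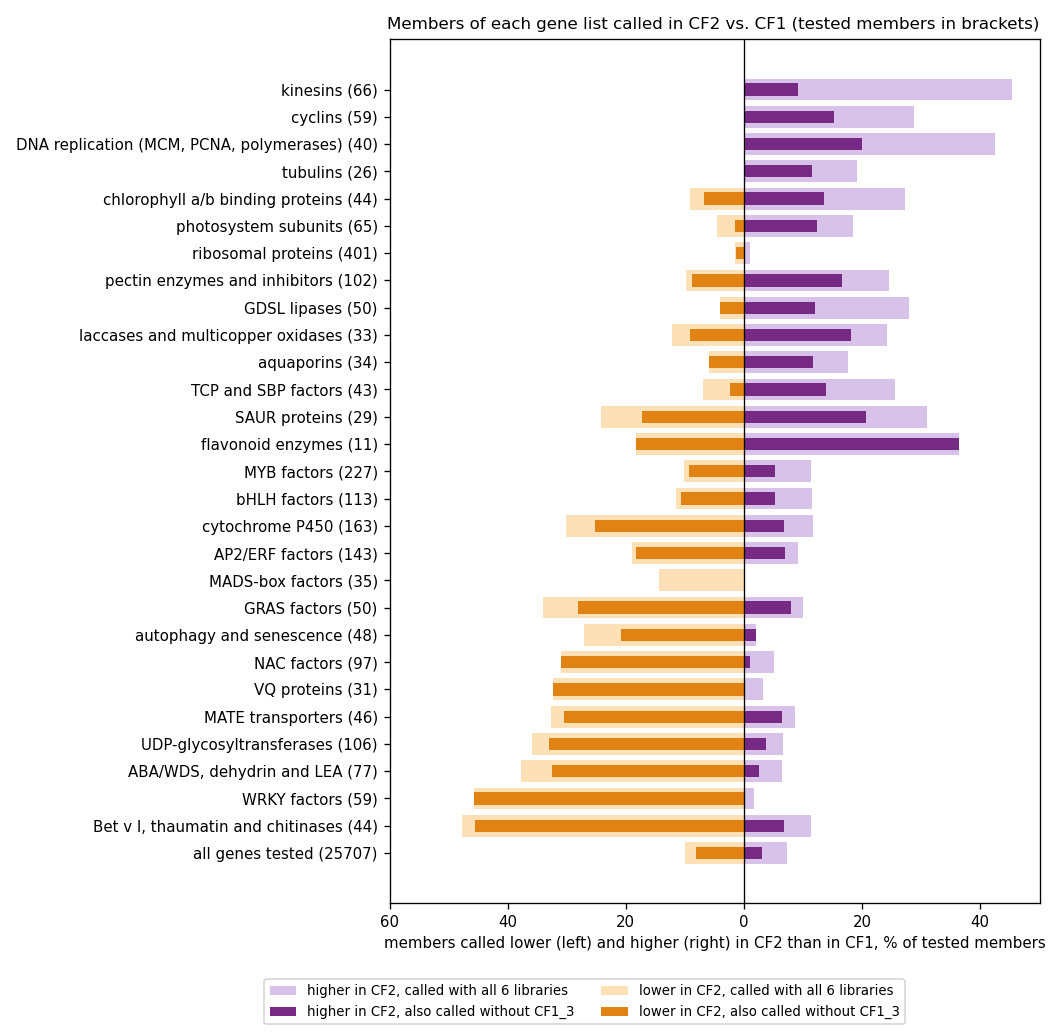
Percent of the tested members of 28 gene lists, and of all 25707 tested genes, that were called higher (right, purple) and lower (left, orange) in ‘CF2’ than in ‘CF1’. Pale bars are calls with all 6 libraries and dark bars are those also made without ‘CF1’ replicate 3. In the kinesins the share higher was 45.5% with all libraries and 9.09% both ways, whereas in the WRKY factors the 45.8% called lower was the same both ways.

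Among the 10 largest rises with a domain name and a mean of at least 10 FPKM at a stage, 3 were in genes with the name or domain of an F1 ATPase or RNA polymerase subunit. PCP004385, with the domain of the alpha subunit of the F1 ATPase, had 139, 289.7 and 212 FPKM in ‘CF2’, against 10.5, 15.5 and 25.3 FPKM in ‘CF1’, and changed by 3.59 ± 0.39 (SE, n = 3 each) on the log2 scale, with an adjusted P of 0.00818. PCP019154, named rpoB after a subunit of the plastid RNA polymerase, had 15.8, 23.4 and 18.9 FPKM in ‘CF2’, against 0.454, 0.887 and 1.297 FPKM in ‘CF1’ (3.44 ± 0.23). All ‘CF2’ libraries stood above all ‘CF1’ libraries in both genes, and ‘CF1’ replicate 3 was the highest of the ‘CF1’ libraries, the change being larger without it (3.9 and 3.6). The RNA polymerase gene PCP004386, which the study names RPB1, changed by 3.35 ± 0.3. The photosystem genes PCP004387 (PsbD, 2.67 ± 0.35), PCP044961 (PsbB, 1.64 ± 0.26) and PCP040352 (PsaA/PsaB, 2.55 ± 0.19) rose as well. Land plants encode these photosystem subunits in the plastid genome. PCP004385, PCP004386, PCP004387 and PCP044961 lie on the same scaffold of the table, scaffold01323, at positions 8066 to 12527, 19227 to 21927, 36856 to 38451 and 82666 to 84610, for which the table names no genome build. The libraries were made from RNA selected with oligo(dT), and whether the fragments came from the plastid or from copies in the nucleus was not tested.

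The other genes with the largest rises were of several kinds. The pectate lyase-type gene PCP023641 (AmbAllergen domain) had 69.7, 74.8 and 45.8 FPKM in ‘CF2’, against 6.21, 9.15 and 0.814 FPKM in ‘CF1’ (3.63 ± 0.64). The cytochrome P450 PCP019416 (3.59 ± 0.6), the aquaporin PCP030846 (3.69 ± 1.24), the ABC transporter PCP030474 (3.37 ± 1.17), the disease resistance response (dirigent-type) protein PCP023400 (3.44 ± 1.03) and the bHLH factor PCP000169 (3.33 ± 1.15) followed. Except for PCP019416 and PCP023641, these had adjusted P of 0.0583 to 0.0794 with all libraries, and in each of them ‘CF1’ replicate 3 was far below the other ‘CF1’ libraries. Without it the changes of these 4 genes were between 1.91 and 2.19.

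The largest falls were of genes that were abundant at 2 DAFB and almost gone at 5 DAFB. The ABA/WDS induced protein gene PCP002552, of a family known for induction by abscisic acid and water shortage, had 0.0477, 0 and 0 FPKM in ‘CF2’, against 771, 125 and 1007 FPKM in ‘CF1’ (-8.83 ± 0.77, adjusted P of 0.00669). The thaumatin gene PCP017228, of a family of antifungal defence proteins, had 0.472, 0.886 and 0.758 FPKM in ‘CF2’, against 628, 95.1 and 1752 FPKM in ‘CF1’ (-8.12 ± 1.0). The NAC factor PCP022273 had 0.2098, 0.121 and 0.233 FPKM in ‘CF2’, against 320.3, 74.3 and 489 FPKM in ‘CF1’ (-7.59 ± 0.67). No ‘CF2’ library reached 1 FPKM in these genes, and ‘CF1’ replicate 3 was the highest and replicate 2 the lowest of the ‘CF1’ libraries in each. The NADP-dependent oxidoreductase PCP005374 (-8.0 ± 0.84), the pectinesterase inhibitor PCP028856 (-7.64 ± 0.43), the CASP-like membrane protein PCP024791 (-7.52 ± 0.68), the DUF761 gene PCP013217 (-7.51 ± 0.83) and the Bet v I protein PCP028413 (-7.36 ± 0.78) fell to a like extent.

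In 40 tested genes all ‘CF2’ libraries were listed at 0 while all ‘CF1’ libraries had at least 1 FPKM, and in 1 gene, the homeodomain gene PCP039690 with 2.96, 3.405 and 4.08 FPKM in ‘CF2’, it was the other way round. Of the 40 genes, 21 were also listed at 0 in all ‘RCF2’ libraries. They included 6 UDP-glycosyltransferases, 2 laccases and 2 sulphate transporters. The highest of them, the lipid transfer protein gene PCP032223, had 88.2, 7.80 and 186.0 FPKM in ‘CF1’, and the glycosyltransferase PCP043377, named here after its values were seen, had 27.8, 5.92 and 57.2 FPKM. An FPKM of 0 can also be a failed estimate, and no fold between ‘CF2’ and ‘CF1’ is given for the 40 genes.

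Several of the most abundant genes, also picked after their values were seen, moved far. A polyphenol oxidase gene, PCP025388, of the enzymes that brown cut plant tissue, had 8.18, 9.91 and 10.7 FPKM in ‘CF2’, against 1743, 437 and 2979 FPKM in ‘CF1’ (-6.96 ± 0.68 (SE, n = 3 each), adjusted P of 0.00723, -6.37 without ‘CF1’ replicate 3). The groups lay far apart in this gene, which was among the 10 highest in ‘CF1’. Of 3 metallothioneins among the 10 highest genes of a stage, small proteins that bind metal ions, 1 was called. PCP003387 fell to 2499, 2438 and 3069 FPKM in ‘CF2’, against 11870, 6483 and 21520 FPKM in ‘CF1’ (-2.16 ± 0.55), whereas PCP012068 had 8056, 7889 and 10500 FPKM in ‘CF2’ and 4151, 7147 and 1207 FPKM in ‘CF1’ and was not called. In both genes ‘CF1’ replicate 3 was the library furthest from ‘CF2’. PCP020137 had 1692, 1746 and 2255 FPKM in ‘CF2’ and 2557, 2844 and 2399 FPKM in ‘CF1’ (-0.46 ± 0.29) and was not called.

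**Figure D2:**
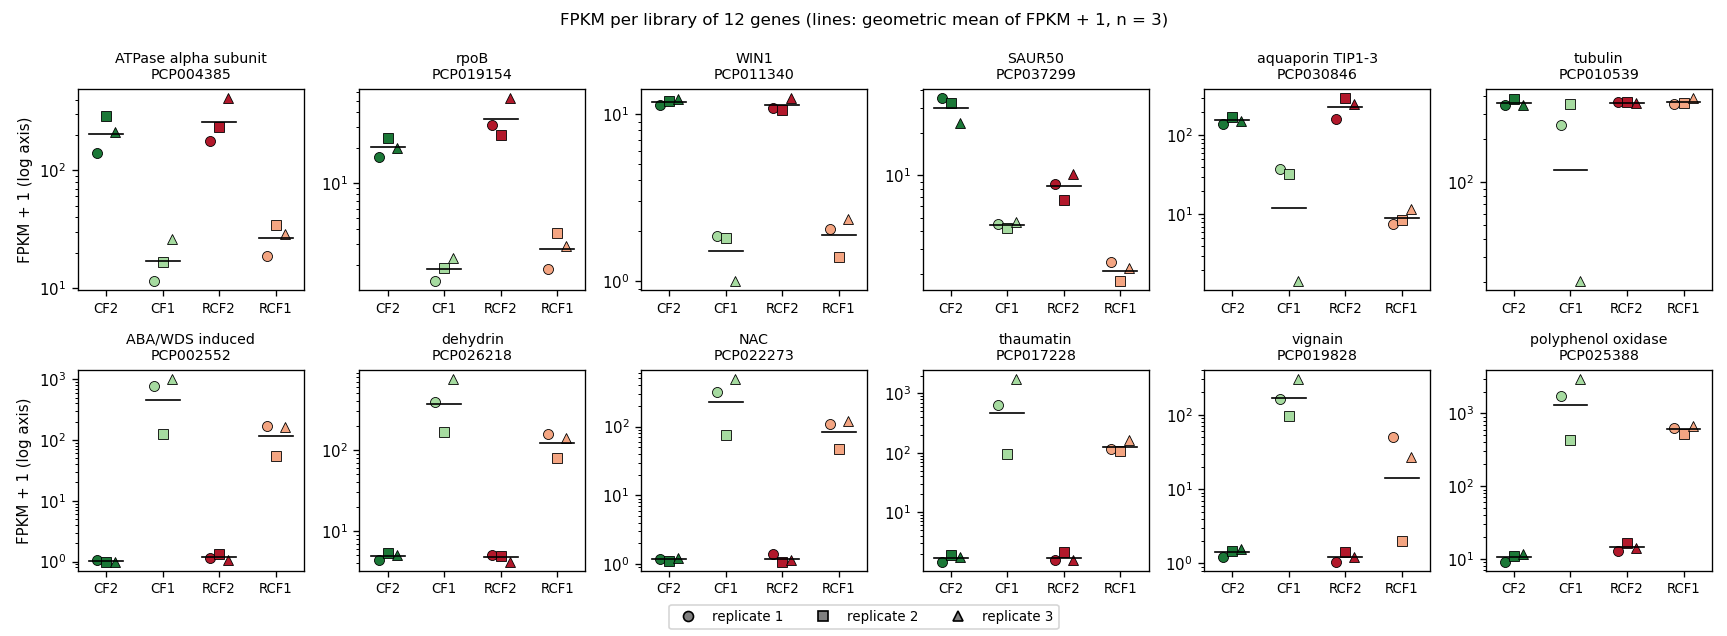
FPKM on a log axis of 12 genes in each library of ‘CF2’, ‘CF1’, ‘RCF2’ and ‘RCF1’. Points are single libraries, lines are geometric means, and ‘CF1’ replicate 3 is marked. The upper genes were higher in ‘CF2’ than in ‘CF1’, apart from the tubulin PCP010539. In that gene the groups overlapped (345, 378 and 343 FPKM in ‘CF2’ and 247, 352 and 19.4 FPKM in ‘CF1’), with ‘CF1’ replicate 3 far below the other libraries. The lower genes were lower in ‘CF2’, as the polyphenol oxidase PCP025388 with 8.18, 9.91 and 10.7 FPKM in ‘CF2’.

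Genes of dividing cells were higher at 5 DAFB, and how many were called depended on ‘CF1’ replicate 3. Among the kinesins, motor proteins that move along microtubules in the spindle and the dividing wall, 30 of 66 were called higher with all libraries and 0 lower, but 6 were called both ways. Their median log2 fold change was 1.21 with all libraries and 0.71 without ‘CF1’ replicate 3, beside 0.16 and 0.09 for all tested genes. The summed level of the kinesins was 753, 829 and 720.3 FPKM in ‘CF2’, against 475, 523 and 282 FPKM in ‘CF1’, with no overlap between the stages. KIN-12F (PCP008703), a kinesin type known from the phragmoplast of Arabidopsis, had 15.4, 18.8 and 13.9 FPKM in ‘CF2’, against 6.01, 7.98 and 0.548 FPKM in ‘CF1’ (1.88 ± 0.65, 1.09 without ‘CF1’ replicate 3).

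The cyclins, which drive the cell cycle with their kinases, had 17 of 59 members called higher and 0 lower, and 9 both ways. PCP007372, named cyclin-D6-1, had 15.8, 15.3 and 17.7 FPKM in ‘CF2’, against 5.03, 6.18 and 0.581 FPKM in ‘CF1’ (2.08 ± 0.57), and the A/B/D/E type cyclin PCP007023 had 20.7, 16.7 and 16.2 FPKM in ‘CF2’, against 6.32, 7.13 and 0.116 FPKM in ‘CF1’ (2.21 ± 0.76). Of the 40 genes of the replication machinery (MCM helicase subunits, PCNA, DNA polymerases and ribonucleotide reductase), 17 were called higher and 0 lower, 8 of them both ways, and the median change was 0.95 (0.62 without ‘CF1’ replicate 3). MCM5 (PCP021584), a subunit of the helicase that opens the DNA for copying, changed by 2.11 ± 0.53, and the catalytic subunit of DNA polymerase alpha, POLA (PCP024151), had 10.9, 10.3 and 9.59 FPKM in ‘CF2’, against 2.83, 3.35 and 0.0206 FPKM in ‘CF1’ (2.13 ± 0.55). PCNA (PCP014572), the clamp that holds the polymerase on the DNA, had 88.99, 91.6 and 88.4 FPKM in ‘CF2’ and 45.6, 50.2 and 9.73 FPKM in ‘CF1’ (1.62 ± 0.6), and was called only with all libraries. In the genes whose values are given ‘CF1’ replicates 1 and 2 lay near each other, below ‘CF2’, and replicate 3 lay further down.

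The tubulins, the subunits of microtubules, were called higher in 5 of 26 cases (19.2%, beside 7.23% of all tested genes) and lower in 0, 3 of them both ways, and the median change of 1.28 became 0.45 without ‘CF1’ replicate 3. Summed over the family there were 2838, 3042 and 2819 FPKM in ‘CF2’, against 1956, 2513 and 596 FPKM in ‘CF1’. Histone H4 (PCP027553) had 99.8, 74.8 and 79.9 FPKM in ‘CF2’, against 40.4, 41.4 and 6.32 FPKM in ‘CF1’ (1.86 ± 0.69). Of 89 proteins with a histone fold 7 were called higher (7.87%, near the share of all tested genes) and 2 lower, 3 (3.37%) and 1 both ways. PCP030381, named as a variant of histone H2A, fell to 1.39, 1.66 and 1.47 FPKM in ‘CF2’, against 9.93, 4.38 and 15.7 FPKM in ‘CF1’ (-1.99 ± 0.4). The actin-binding FH2 proteins (formins), which organise the actin skeleton, had 7 of 21 members called higher and 0 lower, 5 of them both ways.

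**Figure D3:**
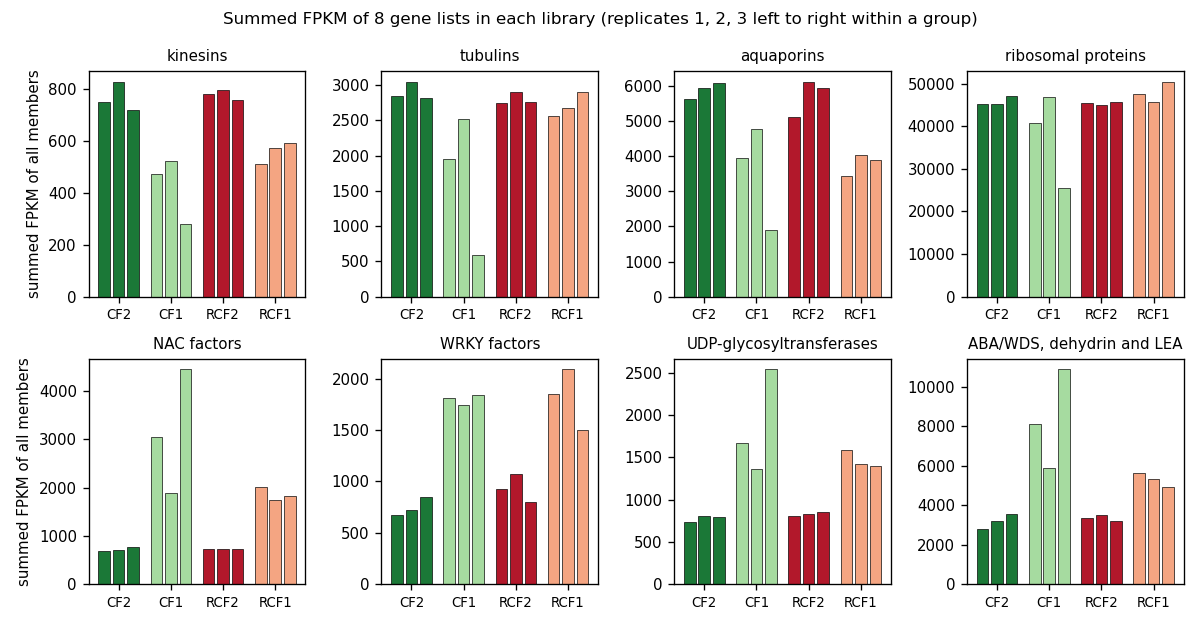
Summed FPKM of all members of 8 gene lists in each library of ‘CF2’, ‘CF1’, ‘RCF2’ and ‘RCF1’. Bars are single libraries, in the order of the replicate numbers from left to right within a group. The tubulins had between 2819 and 3042 FPKM in ‘CF2’ and between 596.0 and 2513 FPKM in ‘CF1’, whereas the WRKY factors had between 677 and 846 FPKM in ‘CF2’ and between 1740.0 and 1842 FPKM in ‘CF1’.

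In contrast, few of the ribosomal proteins were called. Of 401 tested members 4 were called higher and 6 lower (12 and 6 after each library was rescaled to the same sum), and 1 and 5 were called both ways. Their median log2 fold change was 0.36, and 0.1 without ‘CF1’ replicate 3, beside 0.16 and 0.09 for all tested genes. It was -0.05 in ‘RCF’. The change was above 0 in 368 members, in 313 without ‘CF1’ replicate 3, and in 150 in ‘RCF’. The summed level of the family was 45220, 45270 and 47000 FPKM in ‘CF2’, against 40860, 46940 and 25580 FPKM in ‘CF1’, where replicate 3 alone was low. Families with 0 members called both ways included the pentatricopeptide repeat proteins of organelle RNA processing (192 members), the mitochondrial transcription termination factor-related proteins (48) and the HSP70 chaperones (29).

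Genes of the light-harvesting antenna and the photosystems rose in part. Of 44 chlorophyll a/b binding proteins, which hold the pigments of the antenna, 12 were called higher and 4 lower, 6 and 3 both ways, with a median of 0.51 (0.48 without ‘CF1’ replicate 3). PCP021260 had 359, 328 and 337 FPKM in ‘CF2’, against 95.3, 93.3 and 40.5 FPKM in ‘CF1’ (2.24 ± 0.35). The most abundant member in ‘CF1’, PCP018861, went the other way, with 356, 402 and 446 FPKM in ‘CF2’, against 1591, 682 and 2351 FPKM in ‘CF1’ (-1.77 ± 0.47), and PCP029098 with 677, 548 and 666 FPKM in ‘CF2’ and 608, 531 and 623 FPKM in ‘CF1’ was not called. Summed over the family, the ‘CF2’ libraries had 5450, 4927 and 5306 FPKM and the ‘CF1’ libraries had 4794, 3831 and 4829 FPKM. Of 65 photosystem subunits 12 were called higher and 3 lower, 8 and 1 both ways, a list that also holds subunits land plants encode in the plastid. The one that fell, PCP016593 of the Psp29 biogenesis type, had 13.1, 10.5 and 12.8 FPKM in ‘CF2’, against 258, 76.6 and 422 FPKM in ‘CF1’ (-3.96 ± 0.6). Among the 5 small chains of Rubisco, the enzyme that fixes carbon dioxide, the most abundant, PCP011875, had 2206, 1924 and 2204 FPKM in ‘CF2’ and 1669, 2137 and 712 FPKM in ‘CF1’ and was not called, while PCP032736 fell to 7.07, 5.1 and 6.25 FPKM in ‘CF2’, against 32.5, 40.3 and 36.5 FPKM in ‘CF1’ (-2.39 ± 0.15).

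Markers of the epidermis were expressed at both stages, and regulators of the cuticle were higher at 5 DAFB. GLABRA2 (PCP004632), a homeodomain factor of epidermal cells in Arabidopsis, had 21.98, 22.8 and 20.1 FPKM in ‘CF2’, against 11.2, 9.24 and 10.3 FPKM in ‘CF1’ (1.01 ± 0.12, adjusted P of 0.00945), with all ‘CF1’ libraries close together. WIN1 (PCP011340), an ERF that switches on cutin and wax genes in Arabidopsis, had 10.2, 10.9 and 11.2 FPKM in ‘CF2’, against 0.857, 0.818 and 0 FPKM in ‘CF1’ (2.97 ± 0.26). Its relatives PCP017394, named SHINE2, and PCP010108, named SHINE 2, changed by 2.74 ± 0.91 and 1.37 ± 0.33. These factors stood at higher levels in all ‘CF2’ libraries than in any ‘CF1’ library. As each library is a bulk sample, a lower level can come from fewer cells of a type or from less RNA per cell, and these cannot be told apart.

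The enzymes and carriers of the surface lipids did not move as a block. Of 50 GDSL lipases, a family that includes the enzyme that links cutin, 14 were called higher and 2 lower, 6 and 2 both ways, with a median of 0.68 (0.48 without ‘CF1’ replicate 3). PCP029149 had 219, 204 and 205 FPKM in ‘CF2’, against 76.2, 108 and 14.2 FPKM in ‘CF1’ (2.06 ± 0.72). Of 32 genes of wax and fatty acid elongation, 2 were called higher and 7 lower, 1 and 6 both ways. The WSD1-type genes, relatives of the wax ester synthase of Arabidopsis, fell, and PCP014244 had 2.01, 2.19 and 3.72 FPKM in ‘CF2’, against 159, 79.7 and 191 FPKM in ‘CF1’ (-5.25 ± 0.36). CER1-like 2 (PCP000578), of the alkane pathway, fell to 2.01, 2.71 and 1.08 FPKM in ‘CF2’, against 12.2, 5.49 and 13.9 FPKM in ‘CF1’ (-1.93 ± 0.38), whereas its more abundant relative with the same Wax2 domain, PCP044978, had 168, 185 and 144 FPKM in ‘CF2’ and 203, 186 and 163 FPKM in ‘CF1’ and was not called. The marker list of Wax2 and FAE1 domains, for the cuticle, summed to between 187 and 235 FPKM in ‘CF2’, within the range of 189 to 240.0 FPKM in ‘CF1’ except for the lowest library.

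The lipid transfer proteins, small carriers that are abundant in the epidermis of young organs, included some of the most abundant genes of these skins. PCP004874 had 6063, 5551 and 5817 FPKM in ‘CF2’ and 4416, 4259 and 3886 FPKM in ‘CF1’ (0.47 ± 0.36) and was not called, and PCP006617 had 3263, 2854 and 3119 FPKM in ‘CF2’, against 1496, 1808 and 884 FPKM in ‘CF1’, and was called only with all libraries. PCP003685 rose to 584, 537 and 679 FPKM in ‘CF2’, against 206, 370.2 and 50.4 FPKM in ‘CF1’, and PCP030184 fell to 64.3, 58.5 and 64.6 FPKM in ‘CF2’, against 222, 248 and 345 FPKM in ‘CF1’. Of the 37 members 6 were called higher and 3 lower, 1 and 3 both ways. The pattern within the family was thus mixed, with the most abundant members at similar or higher levels at 5 DAFB.

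In the cell wall, pectin enzymes rose more often than they fell. Of 102 pectin enzymes and inhibitors 25 were called higher and 10 lower, and 17 (16.7%) and 9 (8.82%) both ways. The rises included the pectate lyase-type genes PCP023641 and PCP024217 (65.6, 57.2 and 44.5 FPKM in ‘CF2’, against 12.6, 10.8 and 1.25 FPKM in ‘CF1’, 2.98 ± 0.69), of enzymes that cleave pectin, and the pectinesterase inhibitor PCP006814 (3.13 ± 1.08). The falls included the pectin lyase fold gene PCP006011, with 0.786, 1.16 and 0.685 FPKM in ‘CF2’, against 53.2, 25.7 and 111 FPKM in ‘CF1’ (-4.87 ± 0.5), and the pectinesterase inhibitor PCP028856 named above. The pectinesterase inhibitor domain, which is also found at the front of pectinesterases, was therefore among the domains with the largest share of members that rose (6 of 24, 25.0%) and also held 5 members that fell (20.8%).

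Of 51 genes for xyloglucan endotransglucosylases, which cut and rejoin the chains that tie cellulose together, 8 were called higher and 12 lower with all libraries (12 and 10 after each library was rescaled to the same sum), and 2 and 10 both ways. PCP017881 had 11.8, 13.5 and 12.2 FPKM in ‘CF2’, against 412, 183 and 753 FPKM in ‘CF1’ (-4.84 ± 0.49), and PCP040846 fell to 10.2, 6.92 and 11.9 FPKM in ‘CF2’, against 182, 114 and 412 FPKM in ‘CF1’ (-4.3 ± 0.48). The most abundant member at 5 DAFB, PCP011479, had 572, 569.8 and 594 FPKM in ‘CF2’ and 332, 563 and 13.8 FPKM in ‘CF1’ and was not called, ‘CF1’ replicate 2 reaching the level of ‘CF2’ and replicate 3 lying far below. The expansins and barwin-like proteins, which loosen the wall or serve defence, had 5 members of 31 called higher and 7 lower (8 and 7 after quantile normalization). Both ways the numbers were 3 and 7. Expansin-A6 (PCP023195) rose to 17.5, 17.3 and 13 FPKM in ‘CF2’, against 5.97, 8.74 and 0.436 FPKM in ‘CF1’, whereas the hevein-like defence protein PCP023118 fell to 57.1, 58.7 and 56.8 FPKM in ‘CF2’, against 372, 231 and 889.5 FPKM in ‘CF1’ (-2.86 ± 0.47). Among 17 cellulose synthases and COBRA proteins 3 were called higher and 6 lower, 1 and 5 both ways. PCP023532 had 3.43, 1.25 and 3.53 FPKM in ‘CF2’, against 78.8, 46.1 and 131 FPKM in ‘CF1’ (-4.48 ± 0.45).

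Domains typical of other tissues were checked as markers. The laccases, oxidases of lignified tissue, had the largest share of members that rose (6 of 21, 28.6%) among the 174 domains with at least 20 tested genes, but at low levels, as in PCP040693 with 4.26, 4.93 and 4.37 FPKM in ‘CF2’, against 0.854, 1.14 and 0.0523 FPKM in ‘CF1’. The list summed to between 44.5 and 52.5 FPKM in ‘CF2’ and between 48.8 and 104.7 FPKM in ‘CF1’, and 3 of the 21 members fell, of which PCP033552 and PCP036258 had 4.596, 3.15 and 34.1 FPKM and 1.48, 1.32 and 3.48 FPKM in ‘CF1’ and were listed at 0 in all ‘CF2’ libraries. The 22 cellulose synthases, as markers of vascular tissue, of which 12 were tested, summed to between 114 and 121 FPKM in ‘CF2’ and between 151 and 212 FPKM in ‘CF1’. The 34 genes with domains of pollen and anther proteins, of which 23 were tested, summed to between 3557 and 3629 FPKM in ‘CF2’ and between 2996 and 3366 FPKM in ‘CF1’. Of these 2 rose and 1 fell, and the abundant PCP024557 (844, 809.8 and 756 FPKM in ‘CF2’, against 254, 308 and 151 FPKM in ‘CF1’) carries the Ole e 1 domain that is also found in extensins of other tissues. The 14 seed proteins, of which 4 were tested, summed to between 13.5 and 15.6 FPKM in ‘CF2’ and between 18.5 and 25.4 FPKM in ‘CF1’. The part of these tissues in the changes of other genes was not tested.

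ANS, F3H and CHI, enzymes of the flavonoid path, rose in the parent cultivar. ANS (PCP027029), which makes the coloured anthocyanidins, had 131, 202 and 149 FPKM in ‘CF2’, against 20.8, 19.4 and 20.1 FPKM in ‘CF1’ (2.91 ± 0.18 (SE, n = 3 each), adjusted P of 0.00546). F3H (PCP013732) had 128, 171 and 129.5 FPKM in ‘CF2’, against 44.5, 53.01 and 39.4 FPKM in ‘CF1’ (1.62 ± 0.18), and CHI (PCP039844) had 84.6, 107 and 93.9 FPKM in ‘CF2’, against 30.2, 39.1 and 22.9 FPKM in ‘CF1’ (1.63 ± 0.22). The ‘CF1’ libraries, replicate 3 included, were close to one another in these genes, and the changes without that library were 2.92, 1.53 and 1.44. Chalcone synthase 2 (PCP023049, 1.49 ± 0.25), the further chalcone/stilbene synthase PCP012650 (2.02 ± 0.26) and the further CHI genes PCP021141 (1.53 ± 0.19) and PCP027877 (1.63 ± 0.26) also rose, while the chalcone isomerase-type genes PCP016187 (-1.22 ± 0.18) and PCP034373 (-1.36 ± 0.24) fell. Of the 11 tested genes that carry the domain of CHS or CHI by name, which PCP027877 does not, 4 rose and 2 fell. Where such genes are near-identical copies, the counting could split their fragments, so that values of single copies are uncertain.

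CHS (PCP023048), a second chalcone synthase locus, had 16.8, 30.7 and 18.7 FPKM in ‘CF2’ and 7.27, 11.2 and 14.3 FPKM in ‘CF1’ (0.95 ± 0.31) and was not called with all libraries. All ‘CF2’ libraries were above all ‘CF1’ libraries in this gene, and ‘CF1’ replicate 3 was the nearest to ‘CF2’. Of the 11 tested genes with a CHS or CHI domain, 4 were called higher with all libraries and 5 without ‘CF1’ replicate 3. At the entry of the path, PAL1 (PCP018639) rose to 48.2, 68.7 and 47.5 FPKM in ‘CF2’, against 18.8, 30.6 and 19.6 FPKM in ‘CF1’ (1.23 ± 0.24), whereas the more abundant PAL gene PCP008617 had 108, 144 and 129.6 FPKM in ‘CF2’, against 236, 227 and 309 FPKM in ‘CF1’ (-1.01 ± 0.2), a difference called only with all libraries. 4CL1 (PCP003610) had 35.3, 48.4 and 32.8 FPKM in ‘CF2’, against 14.8, 12.1 and 17.6 FPKM in ‘CF1’ (1.33 ± 0.2). The wider family of acyl-activating enzymes to which 4CL belongs had 8 of 41 members called higher and 11 lower, 3 and 11 both ways. Its steepest fall was PCP044811, with 4.03, 4.51 and 4.58 FPKM in ‘CF2’, against 550.4, 125 and 769 FPKM in ‘CF1’ (-6.14 ± 0.65), and its steepest rise was 4-coumarate:CoA ligase-like 6 (PCP000001, 9.38, 13.5 and 11.3 FPKM in ‘CF2’, against 1.27, 0.865 and 0.0283 FPKM in ‘CF1’).

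Of the MYB factors the study names, some were called and others were not. MYB10 (PCP035580), the activator of anthocyanin genes in pear and apple, had 1.98, 2.18 and 3.36 FPKM in ‘CF2’, against 0.344, 0.291 and 0.0558 FPKM in ‘CF1’ (1.5 ± 0.2), and MYB12 (PCP019868), of a type that activates flavonol genes in Arabidopsis, had 7.83, 8.79 and 8.19 FPKM in ‘CF2’, against 3.02, 3.17 and 0.921 FPKM in ‘CF1’ (1.54 ± 0.32). MYB111 (PCP037215), of the same type as MYB12, had 1.14, 0.949 and 1.53 FPKM in ‘CF2’ and 0.295, 0.253 and 0.137 FPKM in ‘CF1’ and was not called (0.84 ± 0.15). MYB86 (PCP009290) was not called either, with 5.06, 5.94 and 6.93 FPKM in ‘CF2’ and 1.72, 5.02 and 0.0297 FPKM in ‘CF1’, and MYB114 (PCP008283) was at most 0.197 FPKM in any of these libraries. GSTF12 (PCP025171), of the glutathione S-transferase type that carries anthocyanins to the vacuole in Arabidopsis, rose to 6.75, 7.76 and 8.48 FPKM in ‘CF2’, against 1.71, 3.15 and 1.24 FPKM in ‘CF1’ (1.56 ± 0.25). The glycosyltransferase PCP018161, named after anthocyanidin 3-O-glucosyltransferase, had 20.6, 26.9 and 20.5 FPKM in ‘CF2’, against 8.12, 6.24 and 4.305 FPKM in ‘CF1’ (1.74 ± 0.23). In the 4 genes called here each ‘CF2’ library was above all ‘CF1’ libraries.

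**Figure D4:**
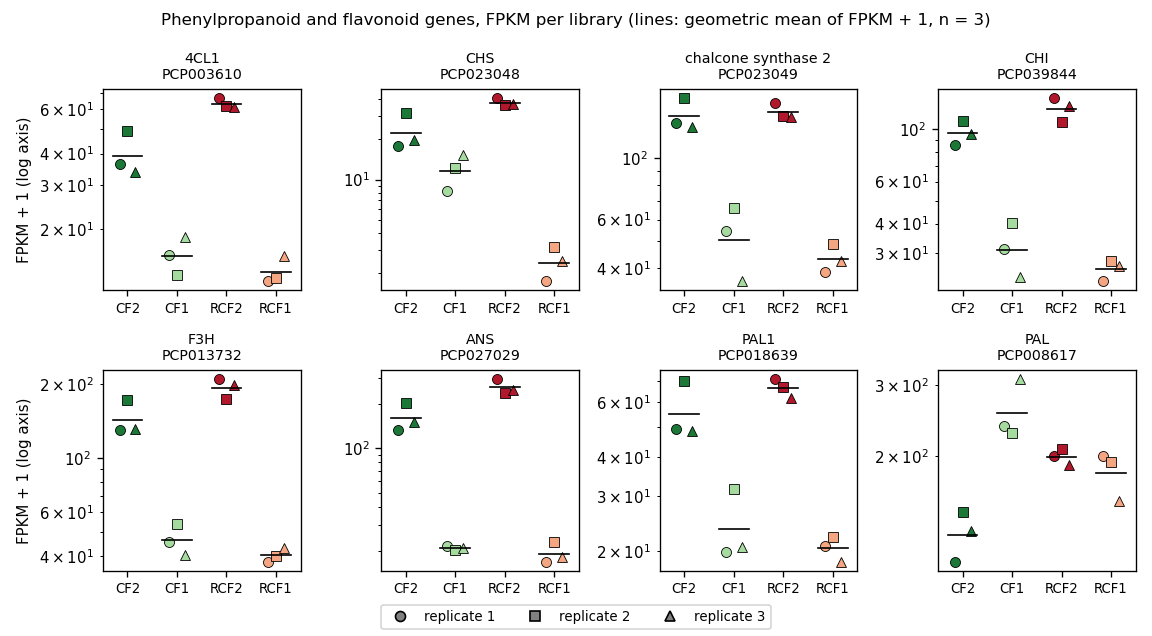
FPKM of 8 genes of the phenylpropanoid and flavonoid path in each library of ‘CF2’, ‘CF1’, ‘RCF2’ and ‘RCF1’, with points for libraries and ‘CF1’ replicate 3 marked. ANS rose to between 131 and 202 FPKM in ‘CF2’, against 19.4 to 20.8 FPKM in ‘CF1’, and PAL (PCP008617) is the one gene of the 8 with lower values in ‘CF2’ (108 to 144 FPKM, against 227 to 309 FPKM in ‘CF1’).

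Several families that modify small molecules had more members that fell than rose. Of 106 UDP-glycosyltransferases, which attach sugars to hormones, phenolics and other compounds, 7 were called higher and 38 lower, 4 (3.77%) and 35 (33.0%) both ways. PCP044908 had 0.0482, 0 and 0.04998 FPKM in ‘CF2’, against 103, 28.7 and 173 FPKM in ‘CF1’ (-6.3 ± 0.62), and the summed level of the family was 734, 810.0 and 798 FPKM in ‘CF2’, against 1664, 1366 and 2540 FPKM in ‘CF1’, with no overlap. The median change was -0.50, beside 0.16 over all tested genes.

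Of 163 cytochrome P450 genes 19 were called higher and 49 lower, 11 and 41 both ways, and the steepest fall was that of PCP016314, with 0, 0.0224 and 0.0234 FPKM in ‘CF2’, against 118, 42.5 and 233 FPKM in ‘CF1’ (-6.72 ± 0.58). The oxoglutarate/iron-dependent oxygenases, the family of F3H and ANS, had 4 of 84 members called higher and 24 lower, 4 and 20 both ways. The glutathione S-transferases, which detoxify by adding glutathione, had 2 of 44 members called higher and 10 lower, 1 and 9 both ways. GST23 (PCP013035) fell to 22.8, 17.9 and 23.9 FPKM in ‘CF2’, against 116, 177 and 207 FPKM in ‘CF1’ (-2.86 ± 0.25). The BAHD acyltransferases differed from these families in that 14 of 65 members were called higher and 7 lower, 9 and 6 both ways. The most abundant of those that fell, PCP032530, had 22.7, 16.8 and 30.8 FPKM in ‘CF2’, against 699, 381 and 1022 FPKM in ‘CF1’ (-4.77 ± 0.4). Of 48 haem peroxidases 5 were called higher and 6 lower (8 and 6 after each library was rescaled to the same sum), 4 and 4 both ways. POX64 (PCP016648) rose to 2.85, 6.98 and 3.88 FPKM in ‘CF2’, against 0.3303, 0.393 and 0.0507 FPKM in ‘CF1’.

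Among the transcription factors, WRKY factors, known as regulators of defence and senescence, fell the most often. Of 59 members 1 was called higher and 27 lower, and the 27 (45.8%) were called both ways. The family summed to 677, 722 and 846 FPKM in ‘CF2’, against 1808, 1740 and 1842 FPKM in ‘CF1’, and the ‘CF1’ libraries were close together. WRKY40 (PCP031143) had 7.2, 11.6 and 18.4 FPKM in ‘CF2’, against 96.1, 116 and 95.3 FPKM in ‘CF1’ (-3.03 ± 0.32 (SE, n = 3 each), adjusted P of 0.00786), and WRKY33 (PCP015468) had 20.01, 26.1 and 45.1 FPKM in ‘CF2’, against 189.7, 114 and 177 FPKM in ‘CF1’ (-2.4 ± 0.34). WRKY53 (PCP023516, -2.29 ± 0.34) and WRKY6 (PCP041332, -2.83 ± 0.33), both linked to leaf senescence in Arabidopsis, fell too. The VQ proteins, which bind to WRKY factors, had 10 of 31 members called lower both ways and 0 higher.

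The NAC factors had 30 of 97 members called lower both ways (30.9%) and 1 higher, NAC66 (PCP028501, 2.13 ± 0.67). Together they reached 678, 711 and 778 FPKM in ‘CF2’, against 3040, 1880 and 4447 FPKM in ‘CF1’, replicate 3 being the highest. PCP000139 fell to 0.173, 0.0638 and 0.324 FPKM in ‘CF2’, against 100.1, 34.5 and 159 FPKM in ‘CF1’ (-6.14 ± 0.53), and PCP013948 to 12.5, 21.2 and 28.4 FPKM in ‘CF2’, against 483, 285 and 827 FPKM in ‘CF1’ (-4.56 ± 0.46). Of 143 AP2/ERF factors, a family of ethylene, stress and growth regulators, 13 were called higher and 27 lower, 10 and 26 both ways. ERF110 (PCP005779) had 3.38, 2.76 and 5.31 FPKM in ‘CF2’, against 63.02, 103 and 86.05 FPKM in ‘CF1’ (-4.15 ± 0.26), and PTI5 (PCP037490), a defence regulator first known from tomato, had 10.5, 8.99 and 15.8 FPKM in ‘CF2’, against 91.9, 148 and 137 FPKM in ‘CF1’ (-3.32 ± 0.27). AIL1 (PCP016390), of the AINTEGUMENTA-like group of growth regulators, was among those that rose, as were WIN1 and SHINE2, and its relative ANT (PCP001899) had 50.9, 55.1 and 58.3 FPKM in ‘CF2’, against 24.97, 25.4 and 0.343 FPKM in ‘CF1’ (2.52 ± 1.16) without being called.

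The MYB and bHLH factors were called in both directions. With all libraries 11.5% of each family was called higher, beside 7.23% of all tested genes. The shares called lower were 10.1% and 11.5%, beside 9.91%. Of 227 MYB factors 26 were called higher and 23 lower (22 and 24 after quantile normalization), 12 (5.29%) and 21 (9.25%) both ways. MYB62 (PCP012040) had 0.291, 0.05902 and 0.139 FPKM in ‘CF2’, against 47.8, 18.2 and 78.2 FPKM in ‘CF1’ (-5.18 ± 0.5), and MYB108 (PCP028848) had 1.58, 0.8596 and 1.58 FPKM in ‘CF2’, against 21.1, 14.3 and 23.9 FPKM in ‘CF1’ (-3.14 ± 0.24), whereas C1 (PCP004993) and PTL (PCP028526) rose by 2.09 and 2.01. Of 113 bHLH factors 13 were called higher and 13 lower, 6 (5.31%) and 12 (10.6%) both ways. Genes with the MYC/MYB N-terminal domain were called higher in 10 of 33 cases and lower in 0, with 5 higher both ways. The homeobox factors had 3 of 47 members called higher and 10 lower, 1 and 9 both ways, and HB7 (PCP014697) and HB12 (PCP031026), which respond to abscisic acid and drought in Arabidopsis, fell. HB7 had 78.7, 63.9 and 80.3 FPKM in ‘CF2’, against 760.5, 366 and 986 FPKM in ‘CF1’ (-3.12 ± 0.38), and HB12 had 42.2, 45.3 and 74.4 FPKM in ‘CF2’, against 181, 278 and 267 FPKM in ‘CF1’ (-2.17 ± 0.28). WOX3 (PCP005308), a homeodomain factor of lateral growth in leaves and petals, rose to 61.4, 65.6 and 58.2 FPKM in ‘CF2’, against 16.1, 13.2 and 0.0952 FPKM in ‘CF1’ (3.29 ± 1.04, adjusted P of 0.0648).

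The TCP and SBP factors, regulators of growth and phase change, had 11 of 43 members called higher and 3 lower, 6 and 1 both ways, among them the SBP gene PCP022339 with 22.4, 14.6 and 17.01 FPKM in ‘CF2’, against 3.97, 4.24 and 0.808 FPKM in ‘CF1’ (2.38 ± 0.44). Among 38 Dof factors 3 rose and 1 fell, and DOF3.1 (PCP044694) reached 158, 155 and 158 FPKM in ‘CF2’, against 45.8, 85.1 and 5.94 FPKM in ‘CF1’. Of 50 GRAS factors 4 rose and 14 fell, and of 21 LOB factors 3 rose and 6 fell. LOB domain-containing protein 1 (PCP010587) had 0.237, 0.307 and 0.366 FPKM in ‘CF2’, against 21.9, 12.04 and 53.4 FPKM in ‘CF1’ (-4.28 ± 0.5), while LOB domain-containing protein 36 (PCP024113) rose to 46.04, 40.7 and 40.3 FPKM in ‘CF2’, against 10.3, 12.3 and 1.22 FPKM in ‘CF1’ (2.64 ± 0.67). C2H2 zinc fingers had 4 of 94 members that rose and 18 that fell, and ZAT10 (PCP008831), a stress regulator in Arabidopsis, fell to 62.9, 79.4 and 79.7 FPKM in ‘CF2’, against 394, 229 and 318 FPKM in ‘CF1’ (-2.04 ± 0.24). The MADS-box factors, which specify floral organs and fruit tissues, had 0 members called higher, 5 of 35 called lower with all libraries and 0 both ways.

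Auxin genes also split by family. The SAUR proteins, small proteins that auxin induces in growing cells, had 9 of 29 members called higher and 7 lower, 6 and 5 both ways. SAUR50 (PCP037299) had 34.1, 31.7 and 22.6 FPKM in ‘CF2’, against 3.497, 3.24 and 3.63 FPKM in ‘CF1’ (2.75 ± 0.18 (SE, n = 3 each), adjusted P of 0.00546), with all ‘CF1’ libraries within a narrow range. SAUR36 (PCP030897), which is linked to senescence in Arabidopsis, fell to 8.03, 5.46 and 9.01 FPKM in ‘CF2’, against 50.5, 44.4 and 104 FPKM in ‘CF1’ (-2.91 ± 0.36). GH3.6 (PCP007672), of the enzymes that join auxin to amino acids, rose to 16.5, 12.8 and 13.96 FPKM in ‘CF2’, against 2.95, 5.23 and 0.442 FPKM in ‘CF1’ (2.22 ± 0.52). The genes named after an auxin-repressed protein, of the dormancy-associated type, fell, PCP019781 to 8.71, 4.07 and 8.25 FPKM in ‘CF2’, against 144, 69.4 and 207 FPKM in ‘CF1’ (-4.06 ± 0.45), and PCP009840 to 393, 300.4 and 312 FPKM in ‘CF2’, against 779, 589.7 and 1145 FPKM in ‘CF1’ (-1.27 ± 0.3). The Aux/IAA and ARF proteins had 3 of 34 members called higher and 1 lower with all libraries, and 0 and 1 both ways.

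For other hormones, PCP013494, named after the ethylene-forming ACC oxidase family, fell to 0.379, 0.231 and 0.465 FPKM in ‘CF2’, against 14.9, 7.22 and 31.6 FPKM in ‘CF1’ (-3.58 ± 0.48). Of 10 gibberellin regulated proteins 1 was called higher with all libraries and 0 both ways. PCP033089 had 215, 189.9 and 176 FPKM in ‘CF2’ and 55.4, 69.5 and 0.8304 FPKM in ‘CF1’ (3.32 ± 1.38), which did not pass with all libraries, ‘CF1’ replicate 3 lying far below the others, and was called without it at 1.62.

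Genes for proteins that accumulate under water shortage fell more often than they rose. Of 77 genes for ABA/WDS proteins, dehydrins and late embryogenesis abundant (LEA) proteins, 5 were called higher and 29 lower, 2 and 25 (32.5%) both ways, with a median of -0.55. The summed level of this list was 2795, 3209 and 3546 FPKM in ‘CF2’, against 8150, 5876 and 10900 FPKM in ‘CF1’. The dehydrin PCP026218 had 3.42, 4.33 and 4.08 FPKM in ‘CF2’, against 396, 164 and 752 FPKM in ‘CF1’ (-6.22 ± 0.53), and the LEA gene PCP007419 had 126, 162 and 278 FPKM in ‘CF2’, against 1360, 1082 and 2213 FPKM in ‘CF1’ (-3.05 ± 0.4). The most abundant dehydrin, PCP019521, had 990.5, 1174 and 1125 FPKM in ‘CF2’ and 1222, 1063 and 1307 FPKM in ‘CF1’ (-0.12 ± 0.23), with overlapping groups. PCP026252, named after XERICO, a RING protein that raises abscisic acid in Arabidopsis, fell to 6.94, 6.64 and 7.87 FPKM in ‘CF2’, against 173, 60.6 and 359 FPKM in ‘CF1’ (-4.27 ± 0.61), and the kinase SAPK2 (PCP024729), of the group activated by abscisic acid in rice, changed by -1.76 ± 0.2. Of 186 small heat shock proteins, HSP70 and DnaJ proteins, the chaperones of stressed cells, 8 were called higher and 9 lower (14 and 8 after each library was rescaled to the same sum), and 5 and 8 both ways.

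In the defence-related families, the Bet v I proteins, homologues of the birch pollen allergen and of pathogenesis-related proteins, had the largest share of members that fell among the 174 domains with at least 20 tested genes, 15 of 24 (62.5%), beside 2 that rose. PCP028416 had 301, 231 and 285 FPKM in ‘CF2’, against 1312, 1005 and 1897 FPKM in ‘CF1’ (-2.32 ± 0.29), while PCP011636, the most abundant member at 5 DAFB, rose to 1986, 1831 and 1996 FPKM in ‘CF2’, against 751, 1052 and 310.2 FPKM in ‘CF1’ (1.63 ± 0.47). With thaumatins and chitinases added, 3 of 44 rose and 20 fell (45.5%), yet the summed level of the list was 6061, 5723 and 5923 FPKM in ‘CF2’ and 6040, 5846 and 7862 FPKM in ‘CF1’, with overlapping groups. Thaumatin-like protein 1a (PCP012163) had 0.0678, 0.246 and 0.164 FPKM in ‘CF2’, against 229, 27.9 and 965 FPKM in ‘CF1’ (-7.33 ± 1.19). The NB-ARC genes, intracellular immune receptors, had 8 of 148 members that fell (5.41%), a share below that of all tested genes, and 0 that rose. Among 72 genes with the leucine-rich repeat of receptors 5 rose and 7 fell, and PCP000074 had 6.91, 6.54 and 6.95 FPKM in ‘CF2’, against 351, 85.6 and 732 FPKM in ‘CF1’ (-5.17 ± 0.74). Of 1072 protein kinases 122 were called higher and 149 lower with all libraries (163 and 145 after each library was rescaled to the same sum), and 37 (3.45%) and 123 (11.5%) both ways.

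Genes of protein breakdown and senescence included some of the steep falls. Vignain (PCP019828), a papain-like protease of dying tissue and germinating seeds, had 0.231, 0.4602 and 0.559 FPKM in ‘CF2’, against 162, 95.6 and 302 FPKM in ‘CF1’ (-6.9 ± 0.41 (SE, n = 3 each), adjusted P of 0.00546), and the related PCP018870 had 57.4, 62.3 and 57.3 FPKM in ‘CF2’, against 1117, 322 and 1930 FPKM in ‘CF1’ (-3.89 ± 0.63). Of 68 papain-like, legumain and subtilisin proteases 5 rose (7.35%, beside 3.10% of all tested genes) and 14 fell (20.6%, beside 8.07%), and the median change was 0.18, beside 0.16 for all tested genes. XCP1 (PCP005609), a protease of forming vessels in Arabidopsis, was among those that rose, with 33.3, 38.4 and 33.9 FPKM in ‘CF2’, against 12.8, 15.4 and 3.61 FPKM in ‘CF1’ (1.83 ± 0.48). The list of autophagy and senescence genes had 1 of 48 members that rose and 10 that fell (20.8%), with a median change of -0.61, and its senescence regulator PCP021233 had 3.19, 3.495 and 6.03 FPKM in ‘CF2’, against 554, 135 and 821 FPKM in ‘CF1’ (-6.28 ± 0.67).

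Genes for the movement of water and solutes gave opposite pictures. Of 34 aquaporins, the channels of water, 6 were called higher and 2 lower, 4 and 2 both ways. All 3 genes named after the tonoplast aquaporin TIP1-3 rose, PCP030846 to 139, 172 and 152 FPKM in ‘CF2’, against 36.4, 31.3 and 0.4395 FPKM in ‘CF1’, and PCP000936 to 168, 177 and 191 FPKM in ‘CF2’, against 53.4, 62.9 and 1.19 FPKM in ‘CF1’ (3.19 ± 1.28, adjusted P of 0.108). Summed over the family there were 5622, 5918 and 6082 FPKM in ‘CF2’, against 3939, 4771 and 1909 FPKM in ‘CF1’, and the groups did not overlap. The MATE transporters, which export small molecules into the vacuole or out of the cell, had 3 of 46 members that rose and 14 that fell. PCP026066 rose to 50.5, 61.8 and 51.3 FPKM in ‘CF2’, against 17.8, 27.3 and 10.2 FPKM in ‘CF1’ (1.61 ± 0.34), and DETOXIFICATION 16 (PCP023000) fell to 0.524, 1.05 and 0.564 FPKM in ‘CF2’, against 28.2, 10.2 and 59.5 FPKM in ‘CF1’ (-3.99 ± 0.59). The major facilitator superfamily, a large group of carriers, is listed under more than 1 domain name. Genes with the general name rose in 1 and fell in 25 of 87 cases (28.7%). Those named as general substrate transporters rose in 4 and fell in 13 of 80 cases (16.2%).

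In sucrose metabolism 0 of 23 genes rose and 3 fell, and sucrose synthase PCP022048, which splits sucrose, had 26.9, 27.1 and 27.2 FPKM in ‘CF2’, against 95.5, 86.4 and 218 FPKM in ‘CF1’ (-2.13 ± 0.35). The leghaemoglobin-type gene PCP002967, of a family induced at low oxygen, fell to 33.7, 22.8 and 29.1 FPKM in ‘CF2’, against 873, 411 and 1370 FPKM in ‘CF1’ (-4.76 ± 0.45). The pyruvate decarboxylase-type gene PCP002576, of the fermentation path, had 228, 248 and 210.5 FPKM in ‘CF2’, against 111, 179 and 32.98 FPKM in ‘CF1’ (1.38 ± 0.59), and was not called. Among the heavy metal-associated (HMA) proteins 9 of 51 members rose (17.6%) and 13 fell (25.5%).

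With ‘CF1’ replicate 3, and not without it, 1061 genes were called higher and 473 lower, and without it only, 49 and 154. Of the 1061 genes, 1055 had an unadjusted P under 0.05 in limma without it too, but a log2 fold change under 1, between 0.53 and 1.0 with a median of 0.81. Of the 473 genes, 444 had such a P, and their median was -0.88. In 710 (89.1%) of the genes that rose ‘CF1’ replicate 3 was the lowest ‘CF1’ library, and in 1704 (82.1%) of those that fell it was the highest. A gene of this kind is PCP025195, with a histone fold, at 115, 113 and 122 FPKM in ‘CF2’, against 54.2, 64.4 and 7.42 FPKM in ‘CF1’ (1.91 ± 0.77, 0.97 without ‘CF1’ replicate 3). Others were DPB2 (PCP027918), a subunit of DNA polymerase epsilon, with 12.98, 13 and 12.3 FPKM in ‘CF2’, against 6.37, 5.85 and 0 FPKM in ‘CF1’, and the GDSL lipase PCP021170, with 21.7, 27.4 and 24.8 FPKM in ‘CF2’, against 11.5, 12.2 and 0.732 FPKM in ‘CF1’. In these genes the other ‘CF1’ libraries also lay below ‘CF2’, and without replicate 3 the changes were 0.95 for PCP027918 and 0.99 for PCP021170.

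The same stages of the sport, whose libraries take no part in ‘CF2’ vs. ‘CF1’, gave 910 genes higher (3.54%) and 1726 lower (6.71%) in ‘RCF2’ than in ‘RCF1’. Of the 797 genes that rose in ‘CF’, 445 (55.8%) were called higher in ‘RCF’ and 0 lower, and 786 had a positive change. Of the 2075 that fell, 1311 (63.2%) were called lower and 1 higher, and 2037 had a negative change. Of the 1061 genes called higher only with ‘CF1’ replicate 3, 145 (13.7%) were called higher in ‘RCF’, 1030 had a positive change and the median was 0.61. Of the 473 called lower only with it, 62 (13.1%) were called lower, 450 had a negative change and the median was -0.63. The median changes in ‘RCF’ were 1.08 for the genes that rose in ‘CF’ and -1.22 for those that fell, beside 0.02 for all tested genes. WRKY40 (PCP031143) changed by -2.03 in ‘RCF’, GLABRA2 by 0.69, the polyphenol oxidase PCP025388 by -5.41, SAUR50 by 2.0, and PCP004385 by 3.28.

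Among the lists, the kinesins had a median of 0.54 in ‘RCF’, beside 1.21 in ‘CF’ and 0.71 in ‘CF’ without ‘CF1’ replicate 3, and 3 of 66 were called higher. The WRKY factors had a median of -0.77 in ‘RCF’ and -0.77 in ‘CF’, with 20 of 59 called lower in ‘RCF’. The tubulins had a median of 0.11 in ‘RCF’, beside 1.28 in ‘CF’ and 0.45 without ‘CF1’ replicate 3. In the kinesins and tubulins the median in ‘CF’ lay nearer to that in ‘RCF’ once this library was left out.

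**Figure D5:**
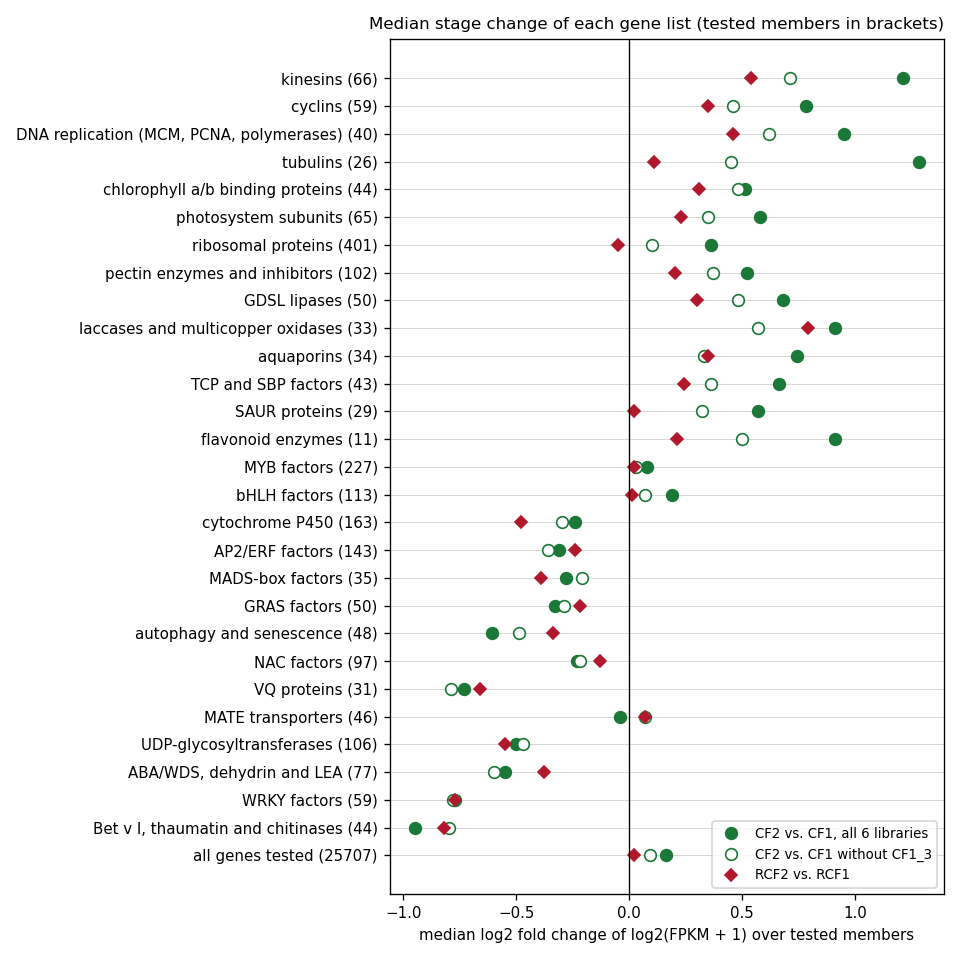
Median log2 fold change over the tested members of 28 gene lists and of all tested genes in ‘CF2’ vs. ‘CF1’ with all libraries (filled circles), in ‘CF2’ vs. ‘CF1’ without ‘CF1’ replicate 3 (open circles) and in ‘RCF2’ vs. ‘RCF1’ (diamonds). The kinesins lay at 1.21, 0.71 and 0.54, and the WRKY factors at -0.77, -0.78 and -0.77.

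Whether the change differed between the cultivars was tested with an interaction term in limma on all 12 libraries. At an unadjusted P under 0.05 and a difference of at least 1, 1019 genes (3.96%) were called, 353 with a larger value for ‘CF’ and 666 with a smaller one, and 0 passed after adjustment, while 4061 had an unadjusted P under 0.05 at any size. Of the 797 genes that rose in ‘CF’ 73 were called in this test, and of the 2075 that fell 509. Over all tested genes, the test without ‘CF1’ replicate 3 called 168 with a larger value for ‘CF’ and 550 with a smaller one. Of these, 43 and 117 passed after adjustment. With all libraries no single gene can therefore be said to have changed more in ‘CF’ than in ‘RCF’, or less.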

How the data were processed

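RNA from fruit skins was sequenced in 12 libraries. The authors deposited FPKM values per gene, which per the labels were made from oligo(dT)-selected RNA, and the submitters' processing notes name Trimmomatic 0.38, HISAT2 2.1.0, StringTie 1.3.4d and DESeq2. The study names an improved apple genome as the alignment reference, with no version of its annotation, and the table names no build for its scaffolds. No RefSeq gene of 42167 shared an identifier with the table (0 matched), so that no sequence is shown. FPKM values keep the shares of a few abundant genes in each library, so a library with a different make-up shifts all other genes.

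Genes with at least 1 FPKM in at least 3 of the 12 libraries (25707 of 42760) were tested on log2(FPKM + 1) with limma 3.58.1 (trend) in R 4.3.3, two-sided, on the 6 ‘CF’ libraries, with and without ‘CF1’ replicate 3. Fold changes are on this scale, which understates changes of low genes. A call needed P under 0.05 before adjustment and a log2 fold change of 1 or more in size, the thresholds of the study, and Benjamini-Hochberg counts are given beside it. ‘RCF’ was fitted in the same way, and the interaction on all 12 libraries. Tables were made with Python 3.11.15, pandas 2.3.3 and numpy 2.4.6, and figures with matplotlib 3.10.9. The fit was tested on simulated data. The study describes its 3 replicates as independent and biological, each a pool of the skins of 100 fruits. It does not say whether they came from separate trees, so P values measure the spread between these pools.

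Lists were defined by domain names in the table (12125 genes have none), and gene names come from the study's supplementary annotation, with names only. Members and lists were chosen with earlier results of these data known. Genes named are the 10 largest rises and 10 largest falls among genes called both ways with groups that do not overlap, a domain name and a mean of at least 10 FPKM at a stage, in each list up to 3 rises, 3 falls and the 2 most abundant members, genes the study names, and 6 genes called only with ‘CF1’ replicate 3. Others are marked as chosen after their values were seen. Alternatives were the pseudocount (0.1), the filter (none, or 10 FPKM), TPM rescaling, quantile normalization, a single fit of all libraries, a block for the replicate number, array weights, adjusted P and each library left out.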

Additional observations from a re-analysis of the deposited data

Results flagged for a closer look

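Of the 562 genes whose values were looked at one by one, 10 had a stage change that differed between ‘CF’ and ‘RCF’ at an unadjusted P under 0.001 in the interaction test of limma over 12 libraries. Over all 25707 genes tested 0 passed after Benjamini-Hochberg adjustment. Differences are given as the change in ‘CF’ minus the change in ‘RCF’, on the log2 scale with the SE.

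Of these genes, 3 belong to the phenylpropanoid and flavonoid path, and each had a smaller value in ‘CF’. The study had picked CHS and 4CL2 as core genes from the same libraries, by changes that correlated with those of the pigments. Their place among the genes looked at is therefore not independent of these data. CHS (PCP023048) had 16.8, 30.7 and 18.7 FPKM in ‘CF2’, against 7.27, 11.2 and 14.3 FPKM in ‘CF1’, and 39.5, 34.97 and 35.8 FPKM in ‘RCF2’, against 0.7499, 2.16 and 1.48 FPKM in ‘RCF1’. The difference was -3.03 ± 0.40 (limma, adjusted P = 0.059, and adjusted P = 0.012 without ‘CF1’ replicate 3). For 4CL2 (PCP018170) the difference was -1.22 ± 0.22 (adjusted P = 0.087, and 0.042 without that library). The PAL gene PCP008617 gave -1.14 ± 0.23 (adjusted P = 0.098, and 0.037 without it), with similar levels in ‘RCF2’ (199, 207 and 189 FPKM) and ‘RCF1’ (199, 192 and 154 FPKM).

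Among regulators, the LOB factor PCP024388 had 25.3, 21.6 and 21.2 FPKM in ‘CF2’, against 124, 79.2 and 183 FPKM in ‘CF1’, and 163, 161 and 161 FPKM in ‘RCF2’, against 176, 139 and 199 FPKM in ‘RCF1’ (-2.30 ± 0.35, adjusted P = 0.066, and 0.0089 without ‘CF1’ replicate 3). The Aux/IAA gene PCP031409 gave -1.55 ± 0.34 (adjusted P = 0.11) and DOF5.4 (PCP032179) gave 1.10 ± 0.24 (adjusted P = 0.12). The NB-ARC gene PCP030478 gave -1.52 ± 0.28 (adjusted P = 0.095).

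The other 3 were listed at 0 in all ‘CF2’ libraries, so that the sizes depend on the pseudocount and are no fold changes between stages. They were the LOB factor PCP004502 (-1.37 ± 0.27, adjusted P = 0.098), the cytochrome P450 PCP008133 (-1.41 ± 0.29, adjusted P = 0.10) and the carboxyl methyltransferase PCP022619 (2.82 ± 0.51, adjusted P = 0.087). PCP022619 had 1.28, 1.43 and 1.21 FPKM in ‘CF1’ and 18.8, 6.67 and 27.2 FPKM in ‘RCF1’, and was listed at 0 in all ‘RCF2’ libraries.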

How the results depend on the processing

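In calls at an unadjusted P, the number of genes higher in ‘CF2’ than in ‘CF1’ depended on the processing more than the number lower did. Of the 1858 higher genes 980 were left after Benjamini-Hochberg adjustment, and 876 were called where an FPKM of 10 in 3 of the 12 libraries was asked for. The genes lower numbered 1531 under that filter, against 2548. With each library left out in turn there were 846 to 3355 higher genes, the fewest without ‘CF1’ replicate 3 and the most without ‘CF1’ replicate 2, and 1236 without ‘CF2’ replicate 2, and there were 2229 to 2962 lower genes. After Benjamini-Hochberg adjustment in limma both numbers moved far. Without ‘CF2’ replicates 1, 2 and 3 they were 6 higher and 22 lower, 1 and 4, and 110 and 608. Without ‘CF1’ replicates 1, 2 and 3 they were 322 and 986, 2503 and 2926, and 840 and 2160. After each library was rescaled to the same sum (TPM) 2766 genes were higher and 2478 lower, and the median change of all tested genes was 0.262, against 0.159 with the values as deposited. limma array weights gave ‘CF1’ replicate 1 nearly all the weight of its group and 1250 higher and 2532 lower genes. Of the 797 genes called higher with and without ‘CF1’ replicate 3, the number was 1421 with a pseudocount of 0.1, 439 with the filter at 10 FPKM, 1368 with TPM, and 641 to 1209 with a further library left out, the highest without ‘CF1’ replicate 2. The 2075 lower genes became 1273 with the filter at 10 FPKM. In ‘RCF’ the higher genes numbered 1519 with a pseudocount of 0.1 and 509 with the filter at 10 FPKM, and the lower genes 1047 with that filter. The interaction gave 0 genes after adjustment, 513 with the filter at 10 FPKM, and 718 to 2877 with a library left out, the highest without ‘CF1’ replicate 2. Under these filters fewer genes were tested. For the other settings the cause was not tested.

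Of the 61 lists 36 had more members lower than higher, 27 with TPM, 43 after adjustment, and 29 to 41 with a library left out. Among the 562 genes, 0 of those called with all 6 libraries changed direction under the settings that tested them (409 of the 562 were tested with the filter at 10 FPKM). Changes of direction were not counted in genes that were not called. The largest number that lost their call was 86, after adjustment.

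The deviations of libraries with the same replicate number correlated at -0.009, 0.061 and -0.014 across genes. For libraries with unlike numbers the values were -0.103 to 0.085. Because the spread within ‘CF1’ was large, these values do not settle whether the numbers pair the samples. With the replicate block 1925 genes were higher and 2535 lower, and 446 and 1580 of them after adjustment.

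Because only FPKM values were used, no counting error can be given for genes at a few FPKM, and 3 libraries a group allow an exact permutation test no P below 0.1.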

Other observations

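Several families that the comparison of stages did not describe also held genes with large changes. Of 151 EF-hand proteins, calcium sensors and their relatives, 7 were called higher and 25 lower in ‘CF2’ vs. ‘CF1’, 5 and 17 both with and without ‘CF1’ replicate 3. PCP031267 fell to 0.409, 0.534 and 0.429 FPKM in ‘CF2’, against 17.9, 5.2 and 47.5 FPKM in ‘CF1’ (-3.62 ± 0.7), and PCP009884, the most abundant member at 2 DAFB, fell to 239, 329.9 and 393 FPKM in ‘CF2’, against 767, 859 and 1224 FPKM in ‘CF1’ (-1.56 ± 0.29). Every ‘CF2’ library lay below every ‘CF1’ library in both genes. Of 38 bZIP factors 1 rose and 4 fell. The one that rose, bZIP34 (PCP001918), reached 15.4, 12.9 and 14.8 FPKM in ‘CF2’, against 4.94, 3.403 and 0.444 FPKM in ‘CF1’ (2.19 ± 0.52), and PCP026214 fell to 6.09, 3.54 and 6.55 FPKM in ‘CF2’, against 88.1, 54.03 and 138 FPKM in ‘CF1’ (-3.82 ± 0.38).

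The second gene named after XERICO, PCP023239, had 1.37, 1.56 and 1.31 FPKM in ‘CF2’, against 47.9, 18.5 and 88.99 FPKM in ‘CF1’ (-4.19 ± 0.53). Among the GRAS factors, PCP019633 rose to 83.8, 91.6 and 81.02 FPKM in ‘CF2’, against 23.4, 27.9 and 2.21 FPKM in ‘CF1’ (2.72 ± 0.83), although 14 of the 50 members fell. The second gene named WOX3, PCP006004, rose to 32.6, 34.4 and 36.1 FPKM in ‘CF2’, against 13.1, 17.3 and 0.885 FPKM in ‘CF1’ (2.17 ± 0.84), and the zinc finger homeodomain gene PCP011986 fell to 7.64, 9.22 and 9.78 FPKM in ‘CF2’, against 76.3, 20.99 and 128 FPKM in ‘CF1’ (-2.61 ± 0.62). The groups did not overlap in any of these genes.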
